A study of Arabidopsis thaliana with 15 samples.

Results

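The early transcript response of wild-type Arabidopsis thaliana leaves was described from 6 arrays of accession Col-0, 3 from leaves sampled at 6 h and 3 from leaves sampled at 0 h of an infection. The bacterium was Pseudomonas syringae pv. maculicola, and it carried the effector AvrRpt2. These 6 arrays were chosen by their labels from the 15 arrays of the series, and the comparison was read across the 13355 genes that could be named by a locus code, of 22588 genes and unnamed probe sets tested. The other arrays are of Col-0 at 10 h, which entered the fit only to share its estimate of spread, and of the rps2 mutant at 10 h and 0 h, which stayed out of it. Plants of both groups were wild type, 4 weeks old, and grown on soil at 22 °C with 12 h of light and 12 h of dark, and mature leaves were infiltrated at an optical density of 0.01 in a solution of MgSO4. No mock-infiltrated leaves are among the labels, so the 6 h difference carries infiltration, bacteria and any change in time of day together, and these cannot be told apart.

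AvrRpt2 is a bacterial protease that reaches the cytoplasm of the host and cleaves the membrane-associated protein RIN4. In plants with the resistance protein RPS2, the loss of RIN4 sets off effector-triggered immunity, with calcium influx, salicylic acid signalling, transcriptional change and often local cell death. Wild-type Col-0 carries RPS2. The RPS2 transcript itself is not analysed here.

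The deposited values are log2 intensities that were centred on each probe set's own median over the series. They show how a gene differs between arrays and hold no absolute level, so the labelled tissue could not be checked by which genes were abundant. A difference of 1 between groups is a doubling. Each change is a change in share of the leaf's RNA, and in whole leaves fewer cells of a type and less RNA per cell cannot be told apart. The 3 arrays of each group were biological replicates per the labels, and replicates differed by an SD of 0.18 to 0.21 over all tested genes and probe sets. Arrays of 6 h and 0 h differed from each other by an SD of 1.33 to 1.42. The spiked poly-A controls averaged -0.13 ± 0.17 on the 6 h arrays and -0.10 ± 0.08 on the 0 h arrays (SD, n = 3 each), so they differed by less than their spread.

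Most of the measured transcripts differed between the groups. By limma's moderated test with Benjamini-Hochberg adjustment at 0.05, 13336 of the 22588 genes and probe sets were called, which is 59.0%, of which 6188 rose (27.4%) and 7148 fell (31.6%). Among the named genes 7288 were called, a background of 54.6%, with 3341 higher at 6 h (25.0%) and 3947 lower (29.6%). The 6 h and 0 h arrays did not overlap for 8197 named genes, or 61.4%. Changes past the threshold and of at least 1 on the log2 scale were found for 3354 named genes (25.1%), of which 1562 named genes rose (11.7%) and 1792 fell (13.4%). The median change of a named gene was -0.04, and the median standard error over all tested was 0.10.

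**Figure D1:**
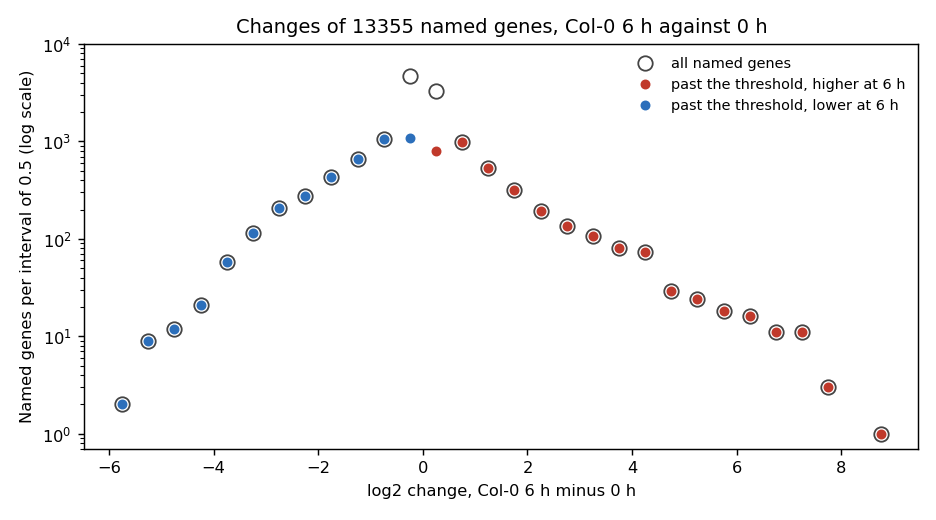
Number of named genes by log2 change between Col-0 leaves at 6 h and 0 h, in intervals of 0.5 with the count on a log scale. Open circles are all named genes and filled points those past the threshold, in red where higher at 6 h and in blue where lower. The right arm extends further: 84 genes rose by at least 5 and 11 fell by at least 5.

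The far ends of the distribution were unequal. At a change of at least 2 there were 705 rises and 696 falls. At a change of at least 4 the counts were 187 and 44, and at least 6 was reached by 42 rising genes and by 0 falling genes. The extreme changes were thus mostly rises, although falls were more numerous among all called genes.

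The largest rise belonged to UGT76B1 (AT3G11340), a glucosyltransferase that inactivates salicylic acid and N-hydroxypipecolic acid. This gene stood at 1.5, 1.28 and 1.27 in the 6 h leaves, against -6.55, -7.56 and -7.47 in the 0 h leaves. All 6 h arrays were far above all 0 h arrays, with a change of 8.54 ± 0.21 (standard error of the fitted change, n = 3 per group, here and below) and an adjusted p of 3.61e-12 by limma. AT3G01830 stood at 1.71, 1.80 and 1.64 in the 6 h leaves, against -5.92, -6.27 and -6.15 in the 0 h leaves. AT4G39670 stood at 2.31, 2.44 and 2.40 in the 6 h leaves, against -5.46, -5.32 and -5.47 in the 0 h leaves. These 2 loci, for which the gene table gives no name, changed by 7.83 ± 0.10 and 7.80 ± 0.09, and neither showed any overlap.

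The rest of the 10 largest rises lay between 7.08 and 7.63. AT2G32190 rose by 7.63 ± 0.13, AT1G57630 by 7.47 ± 0.10 and the chitinase gene CHI (AT2G43570) by 7.17 ± 0.24. Chitinases cut the chitin of fungal walls and accumulate in many defence responses. CHI stood at 1.4, 1.65 and 1.31 in the 6 h leaves, against -5.0, -5.83 and -6.32 in the 0 h leaves, and its 0 h arrays were spread more widely than its 6 h arrays. CML37 (AT5G42380), a calmodulin-like calcium sensor, stood at 5.08, 5.06 and 4.90 in the 6 h leaves, against -2.14, -2.20 and -2.02 in the 0 h leaves. It rose by 7.13 ± 0.13. AT1G10585, AT3G18250 and AT5G52760 completed the 10, at 7.16 ± 0.16, 7.12 ± 0.13 and 7.08 ± 0.19.

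Ranked by the moderated statistic instead of by size, 3 of those genes stayed among the first 10, and genes with small replicate error joined them. The glucosyltransferase gene among them, UGT73D1 (AT3G53150), stood at 3.81, 3.70 and 3.61 in the 6 h leaves, against -2.96, -2.80 and -2.95 in the 0 h leaves. Its change was 6.61 ± 0.09. AT3G13610, the hydroxylase F6'H1 that makes the precursor of the coumarin scopoletin, rose by 7.05 ± 0.09. AT1G19020, AT5G38900 and AT1G51890 rose by 7.0 ± 0.08, 7.01 ± 0.10 and 7.01 ± 0.10.

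Among the 10 largest falls, the gene with a symbol was EXPA8 (AT2G40610), an expansin that loosens cell walls. It stood at -0.66, -1.06 and -1.08 in the 6 h leaves, against 4.27, 4.75 and 4.44 in the 0 h leaves. It fell by 5.42 ± 0.13. The other 9 of these genes carry only locus codes in the gene table. They include AT5G16030 with a change of -5.82 ± 0.20, AT2G10940 with -5.73 ± 0.14 and AT1G09750 with -5.37 ± 0.13.

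By the moderated statistic the lowest genes included TUB5 (AT1G20010), a beta-tubulin of the microtubules, and THIC (AT2G29630), an enzyme of thiamine synthesis in the plastid. TUB5 stood at -2.31, -2.28 and -2.48 in the 6 h leaves, against 2.09, 2.15 and 2.28 in the 0 h leaves. THIC stood at -1.30, -1.26 and -1.26 in the 6 h leaves, against 1.86, 1.93 and 1.88 in the 0 h leaves. The replicates of both genes lay close together, and they fell by 4.53 ± 0.09 for TUB5 and by 3.16 ± 0.07 for THIC.

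**Figure D2:**
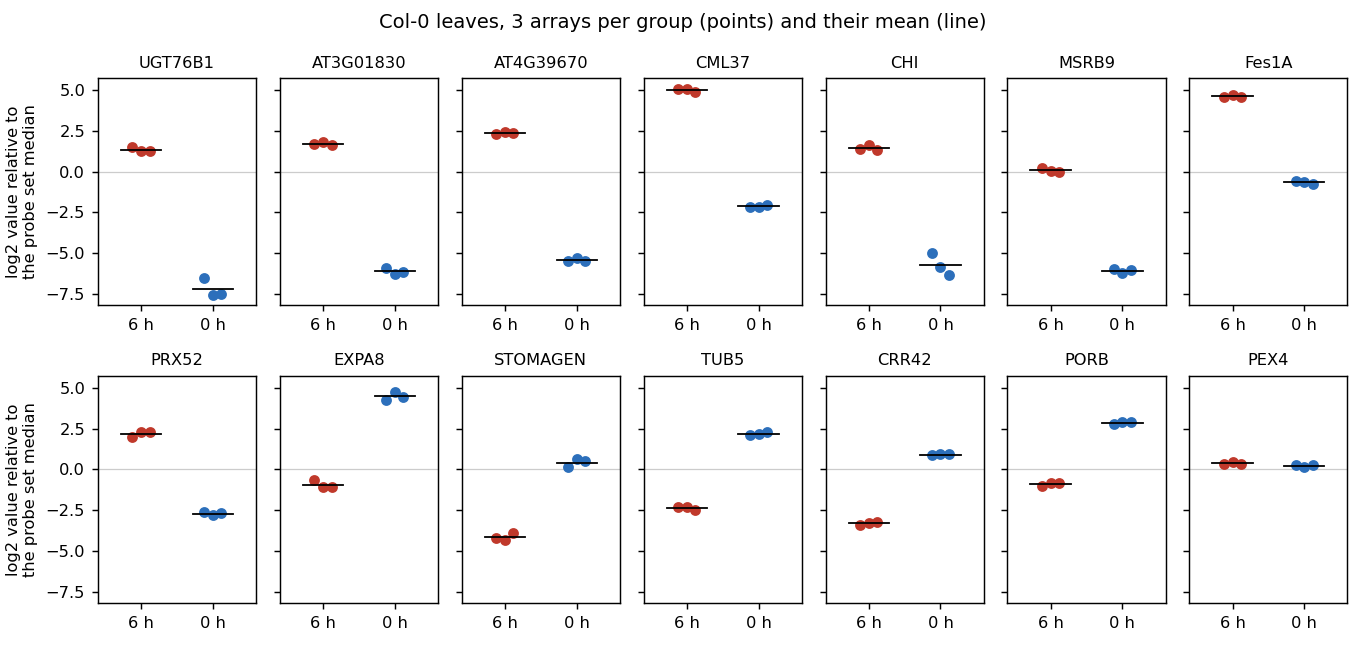
Log2 value relative to the probe set median in each Col-0 array, 6 h left (red) and 0 h right (blue), for 14 genes. Points are the 3 arrays of a group and lines their mean. The 6 h arrays lie above the 0 h arrays in the panels from UGT76B1 to PRX52 and below them from EXPA8 to PORB, while the PEX4 groups differ by 0.13.

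Of 26 listed genes of immune receptor signalling 2 were measured, and both rose. A listed gene is called measured, here and below, only where a probe set was assigned to that gene alone. The rest may be among the unnamed probe sets, so they need not be missing from the arrays. Listed genes with such a probe set but no annotated name were left out of the lists. SGT1A (AT4G23570), a cochaperone that stabilises immune receptors, stood at 2.45, 2.33 and 2.41 in the 6 h leaves, against -0.86, -0.82 and -0.94 in the 0 h leaves. It rose by 3.27 ± 0.08. SAG101, a partner of the immune regulator EDS1, rose by 2.83 ± 0.11. The measured genes of pattern-triggered immunity, 5 of 5, were called as higher, among them the receptor gene EFR at 1.80 ± 0.17 and BIK1, a kinase of receptor complexes, at 2.81 ± 0.09. Members of this group were already known to rise from earlier results of these data.

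Of the 7 genes with a calmodulin-like (CML) symbol, 6 rose and 1 fell, with a median of 2.44. Calmodulin-like proteins bind calcium and pass its signal on. After CML37 came CML38 at 5.60 ± 0.15 and CML41 at 4.21 ± 0.11, and the gene that fell was CML30, by 0.63 ± 0.09. The next group of channels was divided by clade. Of 8 genes for glutamate receptor-like channels, which admit cations across membranes, 5 rose and 3 fell. Those that rose were ATGLR1.2, GLR1.4 and the 3 measured members of clade 2, and those that fell were the 3 measured members of clade 3.

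ATGLR1.2 (AT5G48400) stood at 3.45, 3.35 and 3.36 in the 6 h leaves, against -1.34, -1.17 and -1.51 in the 0 h leaves. GLR2.8 stood at 2.66, 2.33 and 2.29 in the 6 h leaves, against -1.22, -1.26 and -1.32 in the 0 h leaves. GLR3.6, a channel of wound signalling, stood at -0.45, -0.55 and -0.30 in the 6 h leaves, against 0.76, 0.85 and 0.63 in the 0 h leaves. The order of the groups was thus opposite for GLR3.6, with no overlap in any of the 3 genes. The changes were 4.73 ± 0.09, 3.69 ± 0.15 and -1.18 ± 0.09. GLR2.9 and GLR2.7 changed by 2.76 ± 0.16 and 2.14 ± 0.10, and GLR3.5 and GLR3.3 by -1.14 ± 0.12 and -0.64 ± 0.11. GLR2.7, GLR2.8 and GLR2.9 are close relatives with neighbouring locus codes, and probes of one may also bind transcripts of another.

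Counts of transcription factor genes and other gene groups are read against all named genes, of which 25.0% rose and 29.6% fell. A group with shares near these does not stand out. Most families were found by a symbol or synonym, and only 1535 of the 13355 named genes have a symbol. Members with only a locus code are therefore left out, and the counts do not describe whole families. Of 6 WRKY genes, 5 rose and 1 fell, with a median of 1.93. WRKY factors bind the W-box of defence genes. WRKY53 (AT4G23810) stood at 0.71, 0.73 and 0.49 in the 6 h leaves, against -4.38, -4.87 and -4.87 in the 0 h leaves, a change of 5.35 ± 0.13 without overlap. WRKY47 and WRKY42 rose by 2.27 ± 0.17 and 1.58 ± 0.14, and WRKY20 fell by 0.34 ± 0.08.

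Of 23 genes matched by a bZIP or similar name, 8 rose (34.8%), 3 fell (13.0%) and 12 did not pass. Those that did not pass include ZIP9 at -0.16 and ZIP6 at 0.27, whose symbols are those of metal transporters and not of bZIP factors. BZIP60 (AT1G42990), BZIP28 and BZIP17 encode membrane-bound factors that are released under stress of the endoplasmic reticulum, and they rose by 2.97 ± 0.09, 1.67 ± 0.07 and 0.81 ± 0.09. In contrast, BZIP61 and BZIP34 fell by 2.92 ± 0.12 and by 1.16 ± 0.09. Of 7 bHLH genes, 5 fell, 1 rose and 1 did not pass. BHLH101, a factor of the iron deficiency response, stood at -0.73, -0.58 and 0.00 in the 6 h leaves, against 2.68, 3.28 and 3.51 in the 0 h leaves. It fell by 3.59 ± 0.23, and bHLH115 and bHLH121, which also act in iron homeostasis, fell by 0.79 ± 0.10 and by 0.58 ± 0.09. Of their relatives in the same response, bHLH104 rose by 0.42, and ILR3 at -0.02 did not pass.

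GRX480 (AT1G28480), a glutaredoxin that binds TGA factors in salicylic acid signalling, stood at 0.69, 0.65 and 0.71 in the 6 h leaves, against -4.93, -5.51 and -4.97 in the 0 h leaves, a change of 5.82 ± 0.14. BSMT1, which methylates salicylic acid, stood at 0.08, -0.07 and 0.26 in the 6 h leaves, against 0.00, -0.27 and -0.22 in the 0 h leaves. Its groups overlapped and its change of 0.25 ± 0.12 did not pass (limma adjusted p = 0.0929). UGT74F1, another glucosyltransferase of salicylic acid, rose by 0.34 ± 0.07.

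In the jasmonate group JRG21, a gene named for its regulation by jasmonate, changed by 4.71 ± 0.38 and its 0 h arrays spread over -3.43, -5.59 and -4.71. OPCL1, of jasmonate synthesis, rose by 1.38 ± 0.18. The transcription factor genes MYC4 and MYC3 went opposite ways, at -1.25 ± 0.12 and 0.58 ± 0.10, and the MYC3 call was lost when all 15 arrays shared the fit (limma adjusted p = 0.0983). Among auxin genes GH3.3, an enzyme that joins auxin to amino acids, stood at 0.58, 0.30 and 0.00 in the 6 h leaves, against -3.93, -4.23 and -4.04 in the 0 h leaves. IAA29, a repressor of auxin responses, stood at -0.25, -0.69 and -0.39 in the 6 h leaves, against 2.78, 3.08 and 3.19 in the 0 h leaves. Their changes of 4.36 ± 0.15 and -3.46 ± 0.16 were without overlap, whereas GH3.1 at 0.08 did not pass.

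In the endoplasmic reticulum, where secreted proteins fold, 5 of 5 measured genes rose, with a median of 1.93. They were ATERDJ3B at 3.18 ± 0.08, BZIP60, the calreticulin gene CRT1b at 1.93 ± 0.10, BZIP28 and DER1 at 0.90 ± 0.08, the last a part of the degradation of misfolded proteins. In the cytosol the largest rise was that of Hsp70-2 (AT5G02490), an HSP70 chaperone, which stood at 3.72, 3.68 and 3.63 in the 6 h leaves, against -2.04, -2.75 and -2.62 in the 0 h leaves. It rose by 6.15 ± 0.15, and AT5G48570, the FK506-binding protein gene ROF2, by 5.62 ± 0.15.

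Cochaperones of HSP70 did not move as 1 group. Fes1A (AT3G09350), which assists cytosolic HSP70, stood at 4.57, 4.70 and 4.58 in the 6 h leaves, against -0.55, -0.66 and -0.77 in the 0 h leaves. Its relative Fes1B stood at -1.71, -1.25 and -1.34 in the 6 h leaves, against 2.01, 2.08 and 2.03 in the 0 h leaves. The first rose by 5.28 ± 0.10 and the second fell by 3.47 ± 0.11. The Hop genes, whose products link HSP70 to HSP90, all rose, with Hop3 at 4.88 ± 0.09, Hop2 at 1.98 ± 0.08 and Hop1 at 0.66 ± 0.07. The plastid chaperonin gene Cpn60beta4 fell by 3.96 ± 0.15, while ATHSP22.0 at -0.02 did not pass.

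Of 12 genes named for ESCRT and vacuolar sorting, which carry membrane proteins to the vacuole, 9 rose and 2 fell, with a median of 0.87. VPS60.1 (AT3G10640) stood at 1.23, 1.20 and 1.22 in the 6 h leaves, against -2.44, -2.41 and -2.49 in the 0 h leaves. Its change was 3.66 ± 0.07, and VPS20.1 and VPS2.1 rose by 2.04 ± 0.11 and 1.63 ± 0.08. VPS9B went down, with a change of -1.65 ± 0.08.

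Of 9 SEC and EXO84 genes of secretion, 5 rose by at least 1, 1 fell and 3 did not pass. SEC1B, which acts with SNARE proteins in vesicle fusion, rose by 3.97 ± 0.12 and its relative KEU by 1.85 ± 0.08. The exocyst tethers vesicles to the plasma membrane, and its genes SEC15B, EXO84B and SEC6 rose by 1.32 ± 0.08, 1.05 ± 0.08 and 1.0 ± 0.10. SEC5A fell by 0.43 ± 0.11, and SEC15A at -0.04 and SEC10 at 0.12 did not pass. Tetraspanins organise plasma membrane domains, and TET8, a marker of plant extracellular vesicles, stood at 1.32, 1.27 and 1.23 in the 6 h leaves, against -2.57, -2.67 and -2.45 in the 0 h leaves. TET8 and TET9 changed by 3.83 ± 0.09 and 2.65 ± 0.11, and no other of the 15 tetraspanin genes rose, while 6 fell, such as TET7 by 2.29 ± 0.17.

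Of 12 genes for ubiquitin-specific proteases, which remove ubiquitin, 9 rose and 1 fell. The median was 0.65 and only UBP23, at 1.14 ± 0.09, passed 1. Of 12 ubiquitin-conjugating enzyme genes, 7 rose (58.3%) and 4 fell (33.3%). They lay between -1.08 for UBC37 and 0.98 for UBC32, an enzyme of the endoplasmic reticulum. Of 10 autophagy genes, 7 rose and 2 fell. Autophagy delivers cytoplasm to the vacuole, and ATG8 coats its membranes. ATG8H and ATG8B rose by 2.66 ± 0.10 and 2.58 ± 0.11, and ATG8F fell by 1.11 ± 0.10.

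Of 12 RNA polymerase subunit genes, 7 rose (58.3%) and 3 fell (25.0%), with a median of 0.50. NRPB12 and the polymerase I gene NRPA2 rose by 1.53 ± 0.09 and 1.48 ± 0.08, and NRPD7 of polymerase IV fell by 1.20 ± 0.12. Of 6 SM-like genes, which serve messenger RNA decay and splicing, 4 rose and 0 fell, and LSM1B rose by 1.02 ± 0.08.

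**Figure D3:**
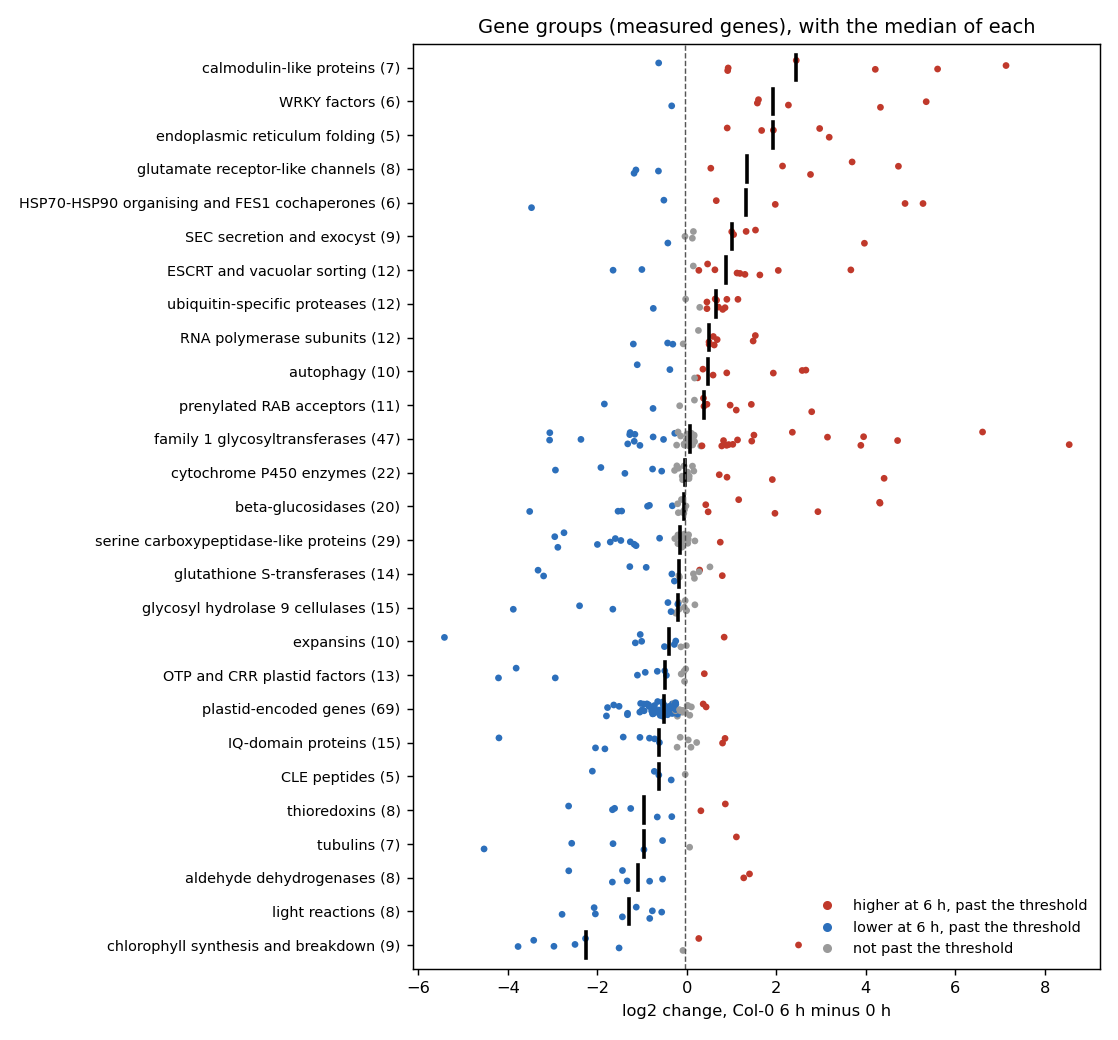
Log2 change between Col-0 leaves at 6 h and 0 h for each measured gene of a set of gene groups, with the number of genes in brackets. Points are genes, red where higher and blue where lower at 6 h past the threshold and grey where not past it. Black bars are group medians, from 2.44 for calmodulin-like genes to -2.26 for chlorophyll genes, and the dashed line is the median of all named genes at -0.04.

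Of 47 family 1 glycosyltransferase genes, whose products attach sugars to small molecules, 16 rose (34.0%), 12 fell (25.5%) and 19 did not pass. Of all named genes 25.0% rose and 29.6% fell. By at least 1, 23.4% of the family rose and 19.1% fell, beside 11.7% and 13.4% of all named genes. The rises reached further, with UGT76E12 at 4.71 ± 0.09, UGT73B5 at 3.95 ± 0.10 and UGT87A2 at 3.89 ± 0.14 after the 2 genes already described. UGT78D1, a rhamnosyltransferase of flavonols, fell by 3.06 ± 0.16. Of 22 cytochrome P450 genes found by name, most of them CYP71B genes, 4 rose, 5 fell and 13 did not pass. Among all named genes 54.6% were called, but these 22 do not stand for the whole P450 family. Neighbours within 1 subfamily went opposite ways there, with CYP71B23 at 4.41 ± 0.19, CYP71B34 at -2.94 ± 0.10 and CYP71B35 at -1.92 ± 0.13.

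Of 20 beta-glucosidase genes 7 rose (35.0%) and 6 fell (30.0%). BGLU45 and BGLU46, whose products split glucosides of lignin precursors, rose by 4.32 ± 0.13 and 2.93 ± 0.21, and BGLU44 fell by 3.51 ± 0.10. CCR2 (AT1G80820), a cinnamoyl-CoA reductase on the way to lignin, stood at 1.22, 1.52 and 1.41 in the 6 h leaves, against -3.12, -3.16 and -3.55 in the 0 h leaves. It rose by 4.66 ± 0.14, whereas HCT, of the same pathway, changed by 0.11 and did not pass. Of 23 listed genes of aliphatic glucosinolates, the sulfur-rich defence compounds made from methionine, 2 were measured and both fell. BCAT4 stood at -1.94, -1.67 and -1.63 in the 6 h leaves, against 1.93, 1.37 and 1.85 in the 0 h leaves, and GSTU20 had a change of -3.20 ± 0.16.

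MSRB9 (AT4G21850), 1 of 4 genes for methionine sulfoxide reductases of type B, which repair oxidised methionine, stood at 0.24, 0.02 and 0.00 in the 6 h leaves, against -5.99, -6.19 and -6.01 in the 0 h leaves. MSRB6 stood at -2.72, -2.82 and -2.44 in the 6 h leaves, against 1.63, 1.65 and 1.95 in the 0 h leaves. The changes were 6.15 ± 0.12 and -4.40 ± 0.19, and MSRB3 and MSRB5 changed by 1.82 ± 0.09 and -3.82 ± 0.33. MSRB3, MSRB5 and MSRB6 have neighbouring locus codes.

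Secreted peroxidases of class III use hydrogen peroxide in the wall. Of the 6 that carry a name 3 rose, 1 fell and 2 did not pass. PRX52 (AT5G05340) stood at 1.96, 2.28 and 2.32 in the 6 h leaves, against -2.64, -2.82 and -2.70 in the 0 h leaves, a change of 4.91 ± 0.11. The peroxidase 71 gene AT5G64120 and Prx37 rose by 4.69 ± 0.15 and 4.47 ± 0.11. Of 14 glutathione S-transferase genes, whose products conjugate toxic compounds, 6 fell (42.9%), 2 rose (14.3%) and 6 did not pass. GSTU18 had the lowest value at -3.33 ± 0.20, and the largest rise was that of GSTU22 at 0.79 ± 0.17.

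Of 12 genes for cysteine-rich peptides of the defensin type, 2 rose (16.7%), 3 fell (25.0%) and 7 did not pass. PDF1.4 rose by 2.81 ± 0.36 and LCR67 by 1.54 ± 0.35, whereas LCR68 and LCR69 changed by -2.48 ± 0.14 and -1.41 ± 0.19. PDF1.2 stood at -0.61, -0.39 and -0.54 in the 6 h leaves, against 1.54, 0.00 and 0.09 in the 0 h leaves, with 1 of the 0 h arrays far above the other 2. Its change of -1.06 ± 0.30 did not pass in the fit of all 15 arrays (limma adjusted p = 0.193).

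**Figure D4:**
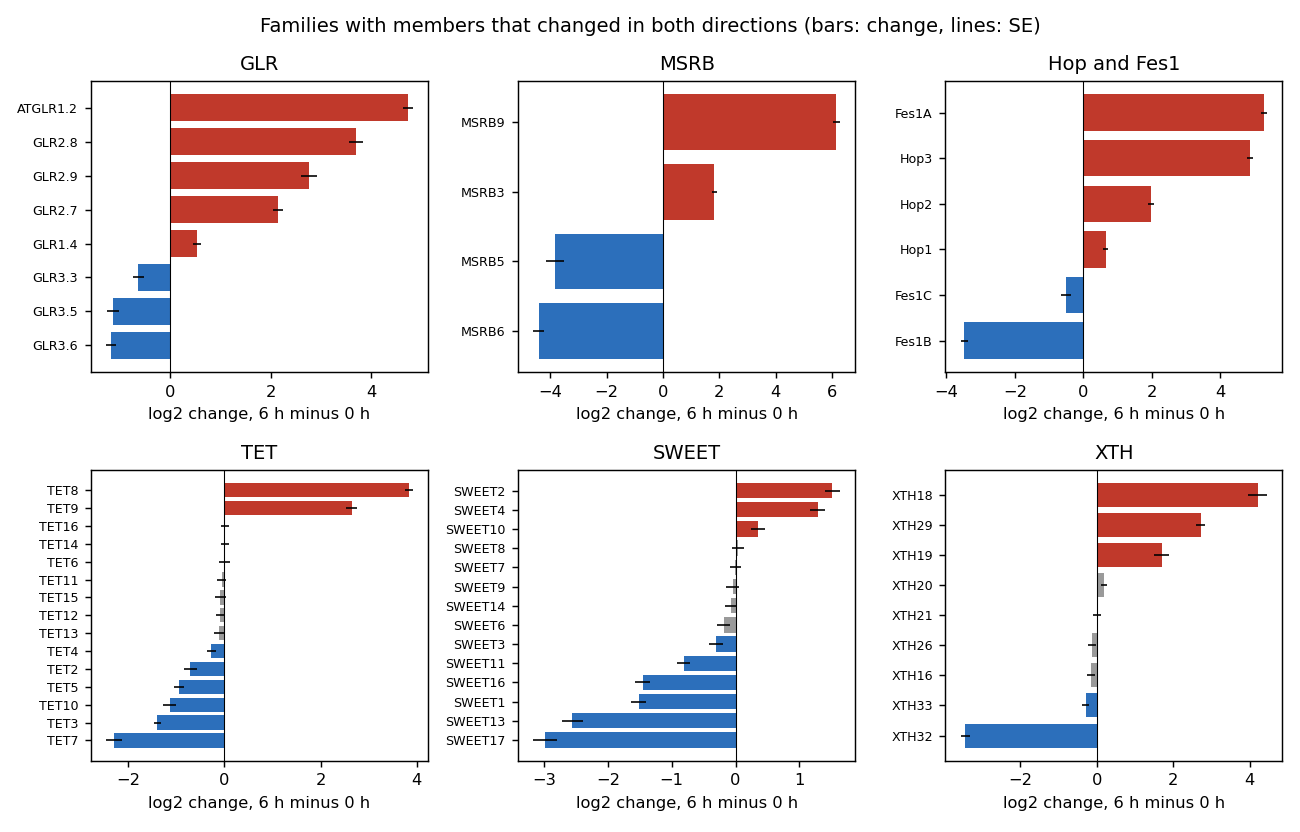
Log2 change (bars) with its standard error (lines) between Col-0 leaves at 6 h and 0 h for the members of 6 families, red where higher and blue where lower at 6 h past the threshold and grey where not past it. Each family holds members that rose and members that fell, from 6.15 for MSRB9 to -4.40 for MSRB6.

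Of 10 expansin genes, 7 fell, 1 rose and 2 did not pass. EXPA4, EXPA15 and EXPA9 followed EXPA8 at a distance, at -1.15 ± 0.14, -1.04 ± 0.15 and -1.01 ± 0.13. EXPA16 rose by 0.83 ± 0.22, but not past the threshold in the fit of all 15 arrays (limma adjusted p = 0.163). Of 15 genes for cellulases of glycosyl hydrolase family 9, 6 fell, 0 rose and 9 did not pass. GH9C2 stood at -1.25, -1.61 and -0.97 in the 6 h leaves, against 2.46, 2.74 and 2.60 in the 0 h leaves, and it fell by 3.88 ± 0.18.

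Xyloglucan endotransglucosylases cut and rejoin the glucans that tie cellulose together. Of 9 such genes 3 rose (33.3%), 2 fell (22.2%) and 4 did not pass. XTH18 and XTH29 rose by 4.21 ± 0.25 and 2.72 ± 0.11, and XTH32 fell by 3.44 ± 0.12. Of 22 trichome birefringence-like genes, whose products acetylate wall polysaccharides, 7 rose (31.8%) and 8 fell (36.4%), near the 25.0% and 29.6% of all named genes, with TBL26 at -3.73 ± 0.27, TBL25 at -3.42 ± 0.12 and TBL37 at 2.91 ± 0.09. Of 29 serine carboxypeptidase-like genes, 11 fell, 1 rose and 17 did not pass, and scpl26 fell by 2.95 ± 0.11.

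Of 7 tubulin genes, 5 fell, 1 rose and 1 did not pass. TUB6 and TUB1 changed by -2.57 ± 0.11 and -1.65 ± 0.08 after TUB5, and TUA1, an alpha-tubulin, rose by 1.11 ± 0.07. IQ-domain proteins bind calmodulin and microtubules, and of 15 such genes 8 fell and 2 rose. The lowest was iqd21, which stood at -1.69, -1.94 and -1.87 in the 6 h leaves, against 2.2, 2.46 and 2.43 in the 0 h leaves.

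STOMAGEN (AT4G12970), a peptide from the mesophyll that promotes stomata, stood at -4.22, -4.31 and -3.89 in the 6 h leaves, against 0.16, 0.60 and 0.48 in the 0 h leaves. It fell by 4.56 ± 0.13. Of 5 CLE peptide genes 4 fell, with CLE44, a signal from phloem to the vascular cambium, at -2.11 ± 0.09. Of 10 genes for RALF-like peptides, a family known to alkalinise the apoplast, 2 rose, 2 fell and 6 did not pass. RALFL34 and RALFL24 fell, at -3.63 and -3.48, and RALFL32 and RALFL33 rose, at 0.62 and 0.48. The RALFL33 call was lost in the fit of all 15 arrays (limma adjusted p = 0.255). Of the cell type markers only FMA, a regulator of guard cells, and the phloem gene SWEET11 were measured, at -0.59 ± 0.09 and -0.81 ± 0.10. Their part in these changes was not tested.

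In the light reactions 8 of 8 measured genes fell, with a median of -1.29 and LHCB4.2, an antenna protein, at the low end. LHCB4.2 stood at -0.44, -0.49 and -0.25 in the 6 h leaves, against 2.41, 2.37 and 2.40 in the 0 h leaves. The Calvin-Benson cycle genes PRK, SBPASE and RCA had changes of -2.77 ± 0.13, -2.69 ± 0.12 and -1.24 ± 0.08. These 2 lists were known to fall from earlier results of these data. HPR, the hydroxypyruvate reductase of photorespiration, fell by 2.79 ± 0.10, and the starch-degrading enzyme gene DPE1 by 3.94 ± 0.11.

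Of 9 genes of chlorophyll synthesis and breakdown, 6 fell, 2 rose and 1 did not pass. PORB (AT4G27440), which makes chlorophyllide in the light, stood at -1.04, -0.82 and -0.86 in the 6 h leaves, against 2.8, 2.9 and 2.89 in the 0 h leaves. HEMA2 (AT1G09940), a glutamyl-tRNA reductase isoform at the start of tetrapyrrole synthesis, stood at 1.79, 1.88 and 1.90 in the 6 h leaves, against -0.58, -0.71 and -0.63 in the 0 h leaves. The early enzyme thus rose by 2.49 ± 0.08 and the late one fell by 3.77 ± 0.14, both without overlap. CHLM, CHLI2 and HEME1 changed by -3.42 ± 0.10, -2.97 ± 0.09 and -2.26 ± 0.08.

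Of 8 thioredoxin genes, 6 fell and 2 rose. TRXF2, ty2, NTRC and ATHM2 pass reducing power to chloroplast enzymes. They had changes of -2.64 ± 0.09, -1.66 ± 0.08, -1.61 ± 0.09 and -1.25 ± 0.07, and TY1 rose by 0.86 ± 0.11. Of 13 CRR and OTP genes, named for chlororespiratory reduction and organelle transcript processing, 8 fell and 1 rose. CRR42 (AT5G20935), needed for the NADH dehydrogenase-like complex of the thylakoid, stood at -3.42, -3.29 and -3.20 in the 6 h leaves, against 0.85, 0.96 and 0.91 in the 0 h leaves. CRR21, an RNA editing factor, fell by 3.81 ± 0.13, while OTP43 at -0.03 and OTP81 at -0.05 did not pass.

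Of 69 measured genes of the plastid genome, 53 fell, 2 rose and 14 did not pass, with a median of -0.52, and 9 fell by at least 1. The lowest were rpl33, a ribosomal protein gene, and psaJ, of photosystem I, at -1.80 ± 0.10 and -1.77 ± 0.09. The gene for the large subunit of Rubisco, rbcL, stood at -1.29, -1.47 and -1.30 in the 6 h leaves, against 0.38, 0.24 and 0.23 in the 0 h leaves, a change of -1.63 ± 0.10. The photosystem II gene psbM at 0.01 and ndhI at 0.03 did not pass.

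Of 14 SWEET genes, which encode sugar carriers, 6 fell (42.9%), 3 rose (21.4%) and 5 did not pass. SWEET17 and SWEET13 changed by -2.98 ± 0.19 and -2.55 ± 0.16, and SWEET2 and SWEET4 by 1.51 ± 0.12 and 1.28 ± 0.12, the last not called in the fit of all 15 arrays (limma adjusted p = 0.143). The cell wall invertase gene cwINV6 rose by 3.07 ± 0.13. NDB2, an alternative NADH dehydrogenase of mitochondria, stood at 2.34, 2.02 and 2.14 in the 6 h leaves, against -1.94, -2.11 and -2.49 in the 0 h leaves. It rose by 4.34 ± 0.13, while its relative NDB1 fell by 0.72 ± 0.10 and NDB3 and NDB4 did not pass.

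Among 14 genes of citrate and isocitrate metabolism, 7 rose and 5 fell. The subunit genes IDH-VI and IDH-V of isocitrate dehydrogenase rose by 2.09 ± 0.07 and 1.81 ± 0.08, and SDH2-2, of succinate dehydrogenase, by 1.37 ± 0.08. The ATP-citrate lyase genes ACLB-1 and ACLA-3 went opposite ways, at -1.34 ± 0.08 and 1.29 ± 0.10. Of 8 aldehyde dehydrogenase genes 6 fell and 2 rose, from -2.64 ± 0.09 for ALDH11A3 to 1.4 ± 0.12 for ALDH2C4.

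Of 26 listed genes of the circadian clock and its outputs 2 were measured, and both were called. GI (AT1G22770), an evening gene of the clock, stood at 0.09, 0.20 and 0.19 in the 6 h leaves, against 2.01, 1.92 and 1.95 in the 0 h leaves, and fell by 1.80 ± 0.10. COR27 fell by 0.62 ± 0.14 and was not called in the fit of all 15 arrays (limma adjusted p = 0.697). The part of the clock in the other changes was not tested.

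Runs were at least 3 named genes with locus codes at most 20 apart, each changed by at least 1 in 1 direction. They numbered 30 for rises with 100 genes and 27 for falls with 85 genes. Over all named genes 1562 rose by at least 1 (11.7%) and 1792 fell (13.4%). How many runs such shares give without any clustering was not computed, so clustering was not tested. The longest rising runs held 5 genes and the longest falling runs 4. In the run from AT1G26380 to AT1G26420 the rises ranged from 2.18 to 6.63, and in that from AT1G72890 to AT1G72950 from 1.58 to 5.35. Related neighbours can share probe binding, so members of a run need not be independent.

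The run from AT1G32920 to AT1G32960 holds the subtilase genes SBT3.5 and SBT3.3, which encode secreted proteases, with changes of 5.11 ± 0.12 and 6.16 ± 0.13. SBT3.3, known as a positive factor of immune priming, stood at 2.98, 3.2 and 3.0 in the 6 h leaves, against -3.13, -3.10 and -3.10 in the 0 h leaves. The flanking gene AT1G32970 changed by 0.14 and did not pass. The falling run from AT1G51080 to AT1G51110 includes CRR41, at -2.94 ± 0.14. The run from AT1G74910 to AT1G74940 includes ALDH10A8 at -1.33 ± 0.11 and ORA47, a factor of jasmonate responses, at -1.04 ± 0.17.

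**Figure D5:**
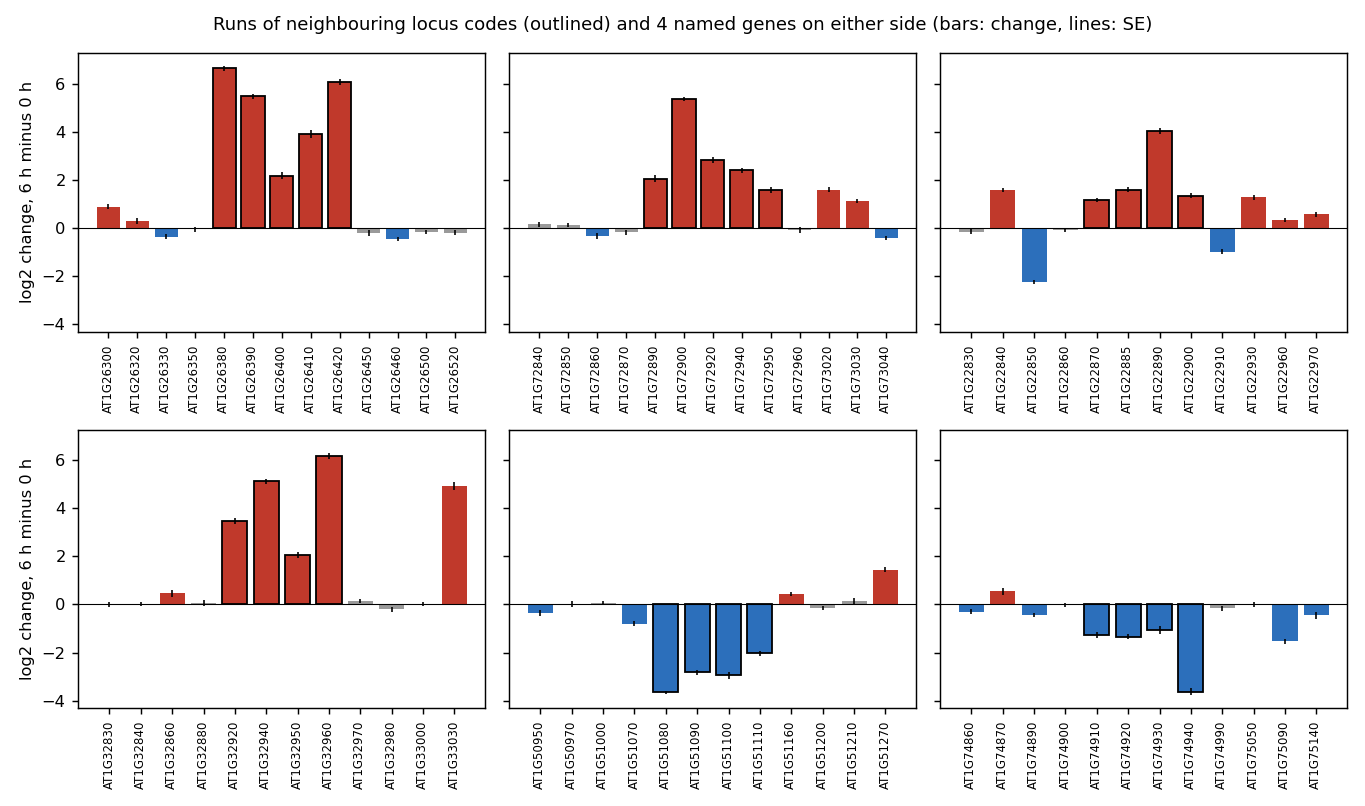
Log2 change (bars) with its standard error (lines) for 6 runs of neighbouring named genes (outlined) and 4 named genes on either side. Genes are in the order of their locus codes. Bars are red where higher and blue where lower at 6 h past the threshold and grey where not past it. The runs of 5 genes are all shown, but of the runs of 4 genes only the first by locus code. The run that starts at AT1G26380 reaches 6.63 while the genes next to it, AT1G26350 and AT1G26450, stand at -0.05 and -0.21.

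Of 3 measured genes that often serve as references, 2 fell and 1 did not pass. PEX4 (AT5G25760), a ubiquitin-conjugating enzyme, stood at 0.32, 0.44 and 0.32 in the 6 h leaves, against 0.24, 0.15 and 0.28 in the 0 h leaves. Its change of 0.13 ± 0.08 did not pass (limma adjusted p = 0.158). The MON1 gene AT2G28390 and TUB6 fell, at -0.50 ± 0.08 and -2.57 ± 0.11. Of the genes with a small standard error, AT1G42697, AT2G47280, AT1G53010, AT1G23610 and AT1G44085 had the smallest changes, all 0.00 at this rounding.

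Col-0 leaves at 10 h shared the same 0 h arrays, so their changes are set beside those at 6 h without a test. Over all tested genes and probe sets, 6 h and 10 h arrays differed by an SD of 0.64 to 0.71. Arrays of 6 h and 0 h differed by 1.33 to 1.42. The genes given here are examples with unlike changes at 6 h and 10 h, and do not stand for all genes. SGT1A was higher by 3.27 at 6 h and by 0.93 at 10 h. The cytokinin response gene RR16 changed by -1.25 at 6 h and by 0.99 at 10 h, and its 6 h call was lost in the fit of all 15 arrays (limma adjusted p = 0.0934). ORA47 changed by -1.04 at 6 h and by 1.70 at 10 h. BGLU27 rose by 1.97 at 6 h, where its arrays stood at 1.19, 0.77 and 1.97, and was higher by 7.08 at 10 h. LHCB4.2 changed by -2.79 at 6 h and by -6.90 at 10 h.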

How the data were processed

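Leaf RNA was measured on oligonucleotide arrays. Per the submitters' processing notes the deposited log2 values come from RMA, and the authors' table has a median of exactly 0 for each of its 22810 probe sets over the 15 arrays, a centring whose step is not given in the sources used here. The files hold no detection call, and precision is limited by the number of arrays. After 64 control probe sets were set aside, 22746 were tested. Single-gene probe sets of a gene were averaged, which gave 13355 named genes, and 9233 other features stayed in the fit. Names come from the platform annotation and the RefSeq gene table of TAIR10.1, in which 1535 of these genes have a symbol.

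A mean for each of the 3 Col-0 groups was fitted over 9 arrays with limma 3.58.1 in R 4.3.3 (lmFit, eBayes, two-sided, Benjamini-Hochberg over 22588 features, threshold 0.05). The rps2 arrays were left out because rps2 10 h replicate 3 differs from its group. Its SD of difference was 0.94 to 0.95 from the other rps2 10 h arrays, and 0.17 to 0.20 from the rps2 0 h arrays. This array widens the shared spread in the fit of all 15 arrays. The step was tested on simulated data.

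The genes, lists and families were chosen with earlier results of these data known, and families from synonyms after the values had been seen. Of 721 list entries 115 had a named probe set, and the 95 with an annotated name were counted. Lists are described by counts and medians, with no test. Genes named are the 10 largest changes each way without overlap, the 10 highest and lowest moderated statistics, up to 6 members of each list with the largest change and 2 with the smallest, 6 of the longest runs and 5 of the least changed genes. Among runs of equal length the first by locus code were taken, so other runs as long were left out. Roles are background knowledge. Alternatives covered the arrays in the fit, the replicate block, variance, scaling, probe sets, a threshold of 0.01 and each array left out. Promoter motifs were not analysed here.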

Additional observations from a re-analysis of the deposited data

How the results depend on the processing

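The number of genes and probe sets called, 13336, stayed within 1.5 times under every alternative run. It was 12245 with all 15 arrays, 13504 without rps2 10 h replicate 3, 13692 with the 6 arrays compared only, 11689 after centring on spiked poly-A RNA, 13883 after repeated quantile normalisation and 11858 at an adjusted p of 0.01. With each of the 6 arrays left out in turn it ranged from 12640 to 12905. Same-numbered 6 h and 0 h arrays deviated from their group means with correlations of 0.0017, -0.0057 and -0.15, so the numbers were not taken to pair samples, and with the replicate block 13105 were called. Of the values of 503 genes chosen for description, each under the alternatives, 8414 kept direction and side of the threshold, 118 lost the call, 18 gained one and 0 reversed. In the fit of all 15 arrays 26 of these genes lost the call. In the fit of all groups without rps2 10 h replicate 3, 6 did. Medians near 0 of the cytochrome P450, auxin, response regulator, late embryogenesis abundant, cysteine-rich peptide, trichome birefringence-like and xyloglucan endotransglucosylase groups changed sign under some alternative. Of 147 genes with several probe sets, 1 had probe sets called in opposite directions, and in 54 only some were called.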

Other observations

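Probe sets without a single named gene formed a large share of the response. Of 9233 such features, 2847 rose and 3201 fell, 65.5% in all, with changes from -6.52 to 8.43, so that some of the largest changes on these arrays carry no gene name here.

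A few families not described above also held called members. The networked (NET) genes encode actin-binding proteins, and of 10 measured 2 rose and 5 fell, with NET2D at 1.80 ± 0.14 and NET1B at -2.15 ± 0.17. Of 15 genes with a TRM symbol, 3 rose and 7 fell, with TRM18 at 2.19 ± 0.13 and TRM21 at -1.72 ± 0.10. The symbol stands for TON1-recruiting motif proteins, which act in the microtubule arrays. TRM82, at -0.23, did not pass, and its symbol is that of a tRNA methyltransferase subunit and not of this family. Of 11 transporter genes of the NPF family, which carries nitrate and peptides, 4 rose (36.4%) and 5 fell (45.5%). The glucosinolate transporter gene GTR2 was among those that rose, by 0.93 ± 0.11. Of 11 genes for prenylated RAB acceptors 7 rose and 2 fell, with PRA1.B4 at 2.79 ± 0.10 and PRA1.F1 at -1.84 ± 0.13. Of 9 chromatin remodelling genes 2 rose (22.2%), among them ETL1 at 1.39 ± 0.09, and 2 fell (22.2%).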
